A study of Mus musculus with 4 samples.

Results

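Cluster 8 of the authors' graph-based clustering held 634 cells that they also classed as CD8 T cells, out of 17211 cells in the series. The members were taken from both deposited expression tables by the cluster number and the class, with no further cut on the level of any gene. The clusters were themselves made from the expression of these genes, so the members are not free of selection on it. The IL-12 library gave 62 of its 12979 cells and the control library 572 of its 4232 cells. Each library was made from live CD45+ cells sorted from mammary tumours of 3 pooled mice. The tumours had been injected with an IL-12 plasmid in the IL-12 group and with a control plasmid in the control group, and both groups were electroporated. The protocol in the labels has HER2 expression induced in mammary tissue at an age of 1 month, with spontaneous tumours. The labels differ on the model, since the title and the design text speak of triple-negative breast cancer and the library names carry 4T1. Gene expression was read from the 5′ end of transcripts, and a separate T cell receptor library gave each cell a clonotype, meaning one or more rearranged receptor chains, or none.

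CD8 T cells kill target cells that present foreign or mutated peptides, and they recognise them through a clonally inherited alpha-beta receptor that signals through the CD3 chains. Natural killer (NK) cells carry no such receptor and read target cells through germline-encoded receptors, many of them from the Klr families. Activated CD8 T cells can take up several of these NK receptors. Ikzf2 encodes Helios, a transcription factor of the Ikaros family best known from regulatory T cells, and Gzma encodes granzyme A, a protease of cytotoxic granules.

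There was 1 library per treatment, so no difference between treatments could be set against a spread between mice, and no p-value is given. Transcripts were counted by unique molecular identifiers (UMIs). Levels are given in CPM, the usual scaled share that a gene takes of all UMIs summed over the cells of a group. Intervals are exact 95% intervals that cover counting error only. Cluster 8 cells had a median of 4201.5 UMIs in the IL-12 library and 5556 UMIs in the control library. The 2 libraries shared 87 cell barcodes, and 0 of these belonged to cluster 8. Shares of cells with a transcript were taken after each cell was thinned to 2000 UMIs, which left 49 IL-12 cells and 567 control cells.

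Cluster 8 made up 0.478% of the IL-12 library (0.366 to 0.612%) and 13.5% of the control library (12.5 to 14.6%). With neutrophils left out of the denominator the shares were 0.877% in the IL-12 library and 37.9% in the control library. Among cells of the CD8 T cell class cluster 8 took 1.90% of 3264 IL-12 cells and 88.1% of 649 control cells. Most IL-12 cells of that class were in cluster 5, with 2488 cells, or cluster 12, with 704 cells. In the control library cluster 5 held 13 cells of the class and cluster 12 held 53. Cluster 9, also used for comparison here, was labelled with the CD4 T cell class, with 996 of 997 IL-12 cells and 175 of 179 control cells in that class. This label did not match its co-receptor transcripts. Thinned to 1000 UMIs, Cd8a was seen in 33.8% of IL-12 and 29.8% of control cells of cluster 9. Cd4 was seen in 5.17% of its IL-12 and 10.7% of its control cells. The class label covered 62 of the 67 cells of cluster 8 in the IL-12 library and 572 of 572 in the control library. A share of sorted cells depends on every other cell in the sort, and a number of cells per tumour was not measured.

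The genes that name the cluster were found in unequal numbers of its cells. Cd8a, the alpha chain of the CD8 co-receptor (mm10 chromosome 6, 71373427 to 71379173, plus strand), was seen in 75.5% of IL-12 cells (61.1 to 86.7%) and 63.7% of control cells (59.6 to 67.6%). Cd3e, a signalling chain of the T cell receptor (chromosome 9, 44998740 to 45009627, minus strand), was seen in 85.7% of IL-12 cells and 75.3% of control cells. Ikzf2 (chromosome 1, 69531214 to 69687245, minus strand) was seen in 42.9% of IL-12 cells (28.8 to 57.8%) and 42.2% of control cells (38.0 to 46.3%). Gzma (chromosome 13, 113093825 to 113100981, minus strand) was seen in 10.2% of IL-12 cells (3.40 to 22.2%) and 15% of control cells (12.2 to 18.2%). Klre1, an NK receptor chain of the Klr families (chromosome 6, 129577905 to 129585827, plus strand), was seen in 14.3% of IL-12 cells (5.94 to 27.2%) and 7.58% of control cells (5.54 to 10.1%). Ikzf2 was thus a gene of many cells, while Gzma and Klre1 transcripts were seen in a minority. Before thinning the control shares were 77.6% for Cd8a, 90.4% for Cd3e, 60.1% for Ikzf2, 19.9% for Gzma and 18.9% for Klre1.

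Neutrophils, which should lack these genes, gave the background of free RNA, with medians of 2553 UMIs in the IL-12 library and 2524 UMIs in the control library. Ikzf2 was seen in 0.924% of IL-12 neutrophils and 0.537% of control neutrophils. Klre1 was seen in 0.511% of IL-12 neutrophils and 0.269% of control neutrophils, and Cd3e in 4.91% of IL-12 neutrophils and 2.1% of control neutrophils. Gzma was seen in 1.12% of IL-12 neutrophils and 5.37% of control neutrophils, so the Gzma share of control cluster 8 cells stood closest to its background. S100a8, a calcium-binding protein of neutrophils, was seen in 98.0% of IL-12 neutrophils and 99.6% of control neutrophils. It was also seen in 26.5% of IL-12 cluster 8 cells and 70% of control cluster 8 cells. Its part in the differences between the libraries was not tested.

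Other receptors shared with NK cells were more widespread than Klre1. Klrc1, the inhibitory partner of the CD94 heterodimer, was seen in 38.8% of IL-12 cells and 42.7% of control cells. Klrd1, CD94 itself, was seen in 38.8% of IL-12 cells and 38.3% of control cells. Klrk1, the activating receptor NKG2D, was seen in 26.5% of IL-12 cells and 36.7% of control cells. The genes that define NK cells proper were near 0. Ncr1, the NKp46 receptor, was seen in 0% of IL-12 cells and 1.41% of control cells, and Klrb1c, the NK1.1 antigen, in 0% of IL-12 cells and 0.529% of control cells. Pdcd1, the inhibitory receptor PD-1, was seen in 73.5% of IL-12 cells and 59.6% of control cells. Foxp3, the regulator of regulatory T cells, was seen in 0% of IL-12 cells and 1.59% of control cells, and the co-receptor gene Cd4 in 0% of IL-12 cells and 10.1% of control cells.

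Ikzf2 and Gzma were mostly carried by different cells of cluster 8. In the thinned control cells 22 of 567 (3.88%) held both transcripts, whereas the product of the separate shares is 6.32%. Gzma was seen in 9.21% of the control cells with Ikzf2 and in 19.2% of the control cells without it. Cd8 (Cd8a or Cd8b1) and Ikzf2 were seen together in 190 control cells (33.5%), against a product of 30.9%, and Ikzf2 was seen in 45.8% of cells with Cd8 and 32.2% of cells without. Gzma went the other way, with 11.3% of cells with Cd8 and 25.0% of cells without. In the IL-12 library Cd8 and Ikzf2 were seen together in 19 of 49 cells (38.8%), and Ikzf2 and Gzma in 1 cell (2.04%). These are descriptions of cells that share 1 library, and a transcript missed at this depth counts as absent.

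**Figure D1:**
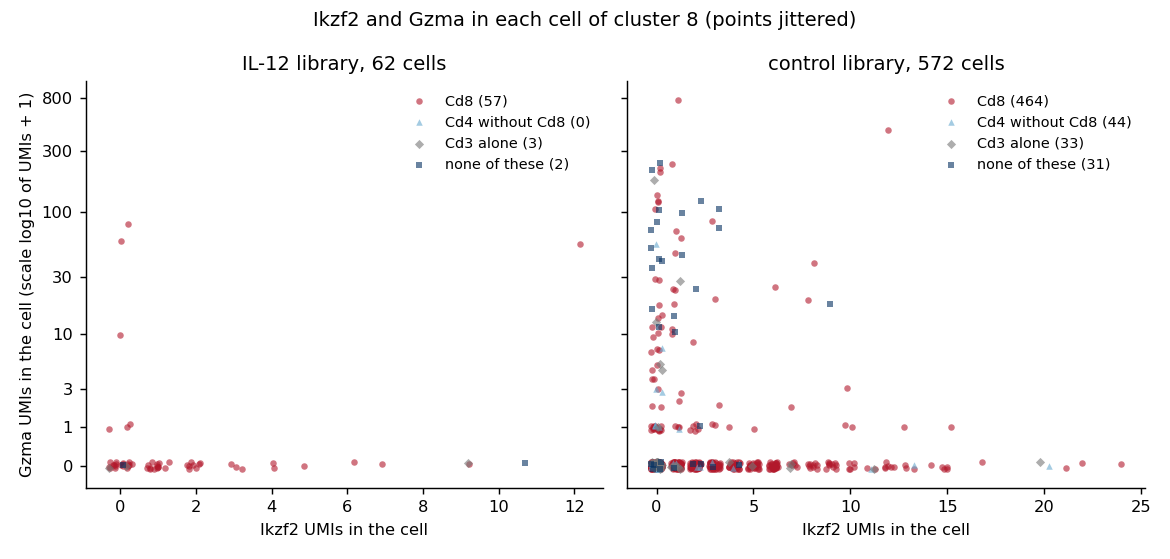
UMIs of Gzma, on a log axis, against UMIs of Ikzf2 in each cell of cluster 8, in the IL-12 library on the left and the control library on the right, coloured by the co-receptor and CD3 transcripts of the cell. Most cells rich in Gzma lie near the low end of the Ikzf2 axis, with exceptions that include 1 cell of 12 Ikzf2 UMIs in each library.

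Counted without thinning, the cells of cluster 8 fell into 4 groups by the T cell transcripts they held. Cd8a or Cd8b1 was seen in 57 of 62 IL-12 cells (91.9%) and 464 of 572 control cells (81.1%, 77.7 to 84.2%). Cd4 without Cd8 was seen in 0 IL-12 cells and 44 control cells (7.69%). A CD3 chain with neither co-receptor was seen in 3 IL-12 cells and 33 control cells (5.77%). None of these genes was seen in 2 IL-12 cells and 31 control cells (5.42%). The control cells with none of them had a median of 5809 UMIs, so they were not shallower than the other control cells. Of the 464 control cells with Cd8, 30 also held Cd4.

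The groups differed in their other transcripts, here in the control library. Since they were cut by Cd8, Cd4 and CD3 transcripts, levels of those genes are not findings. Ikzf2 stood at 494 CPM in the Cd8 cells, 294 CPM in the Cd4 cells, 358 CPM in the cells with CD3 alone and 196 CPM in the cells with none. Gzma stood at 1129 CPM in the Cd8 cells, 350.4 CPM in the Cd4 cells, 1396 CPM with CD3 alone and 7515 CPM in the cells with none. The 31 cells with none held 1417 of the 4843 Gzma UMIs (29.3%), seen in 21 of them. The Cd8 cells held 89.5% of the Ikzf2 UMIs and 88.4% of the Klre1 UMIs.

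The 31 control cells with none of the T cell transcripts carried most of the Ncr1 and Klrb1c transcripts of cluster 8. They held 19 of its 24 Ncr1 UMIs, in 12 cells, and 7 of its 10 Klrb1c UMIs. The signalling adaptors Tyrobp and Fcer1g, which couple NK receptors to their kinases and are also found in myeloid cells, stood at 806 and 541 CPM in these cells and at 82.6 CPM for Tyrobp in the Cd8 cells. Eomes, a T-box factor of NK cells and of CD8 T cells, stood at 440.2 CPM in the cells with none and 94.2 CPM in the Cd8 cells. Gzmc, another granzyme, stood at 1411 CPM in these cells, with 266 of the 538 UMIs of cluster 8. Pdcd1 stood at 15.9 CPM there, against 704 CPM in the Cd8 cells. S100a8 stood at 499 CPM in these cells, 697 CPM in the Cd8 cells and 55346 CPM in neutrophils, so the neutrophil transcript was not higher in the cells with most Ncr1.

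The Cd4 cells and the cells with CD3 alone had leading genes of their own. Maf and Gata3, factors of helper T cell subsets, stood at 771 and 791 CPM in the Cd4 cells. Il1rl1, the receptor of IL-33, stood at 771 CPM there, and Foxp3 at 112 CPM. In the Cd8 cells with a clonotype Maf stood at 49.9 CPM, Gata3 at 66.8 CPM, Il1rl1 at 8.46 CPM and Foxp3 at 0.89 CPM. Il17a, the cytokine of type 17 lymphocytes, had 34 UMIs in 4 cells, of which 33 UMIs lay in 3 cells with CD3 alone. Cd163l1 and Blk, genes of gamma-delta T cells in the mouse, stood at 29.8 and 65.6 CPM with CD3 alone and at 0 CPM in the Cd8 cells with a clonotype. The constant genes of the gamma and delta chains were not analysed here.

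**Figure D2:**
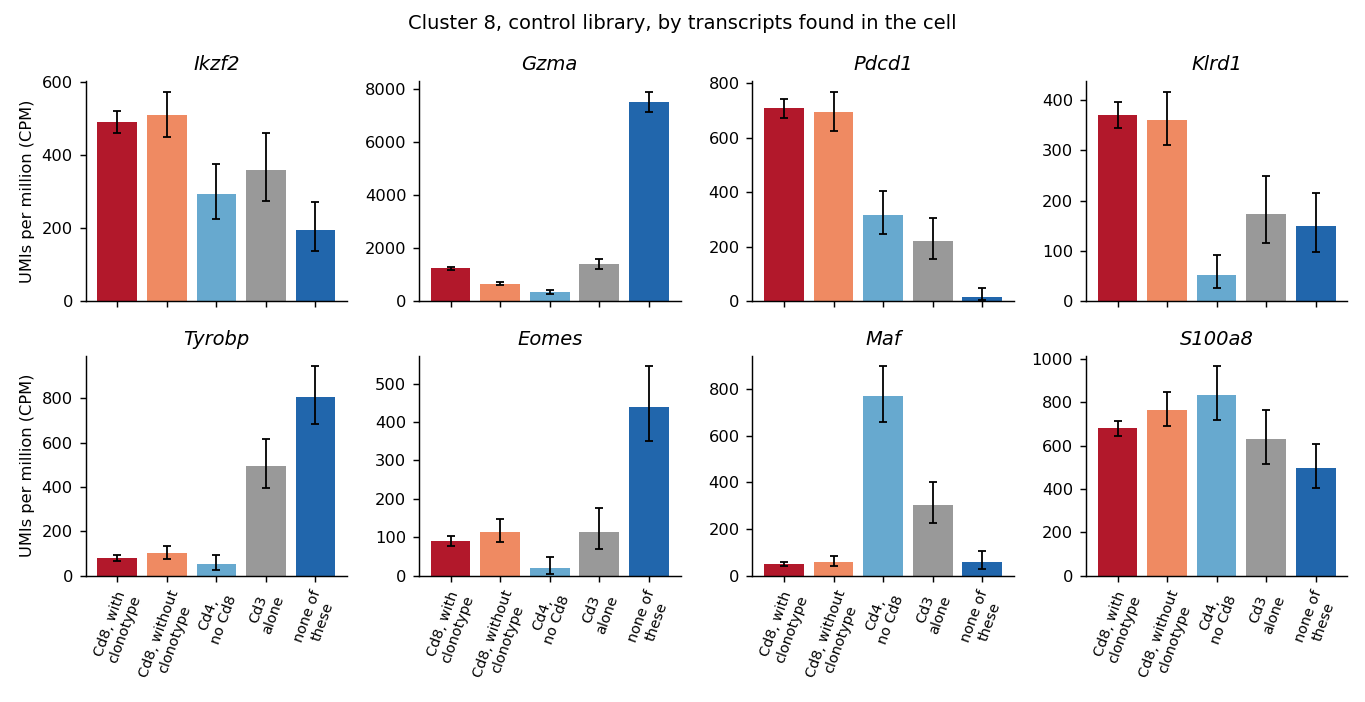
Levels of 8 genes in CPM in control cells of cluster 8, for Cd8 cells with and without a clonotype, Cd4 cells, cells with CD3 alone and cells with none of these transcripts, with exact 95% Poisson intervals. Gzma, Tyrobp and Eomes were highest and Pdcd1 lowest in the cells with none, and Maf was highest in the Cd4 cells.

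A clonotype was recorded for 20 of 62 IL-12 cells (32.3%, 20.9 to 45.3%) and 397 of 572 control cells (69.4%, 65.4 to 73.2%) of cluster 8. In cluster 5 of the same class the shares were 90.0% in the IL-12 library and 84.6% in the control library. In cluster 9, CD4 by label only, they were 53.9% in the IL-12 library and 18.4% in the control library. Neutrophils had a clonotype in 0.152% of IL-12 cells and 0.0368% of control cells. Within the control cells of cluster 8 the share was 77.2% of the Cd8 cells, 65.9% of the Cd4 cells, 30.3% of the cells with CD3 alone and 0 of 31 cells with none, which allows a share of up to 11.2%. Control cells with a clonotype were deeper, with a median of 5959 UMIs against 4522 UMIs without one. IL-12 cells had medians of 4447.5 UMIs with and 3674 UMIs without. Among cells of at least 2000 UMIs the shares were 36.7% in the IL-12 library and 70% in the control library.

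Control cells with a clonotype held more transcripts of the CD8 T cell programme, and those without held more NK cell transcripts. Of 5473 genes measured, meaning at least 50 UMIs and presence in 5% or more of the cells of a group, 315 (5.76%) were at least 1.5-fold higher and 355 (6.49%) at least 1.5-fold lower with a clonotype, 12.2% in all, and the median of all was -0.02 on the log2 scale. Cd8a stood at 798 CPM with a clonotype and 419 CPM without, 1.91-fold higher (1.70 to 2.14). Cd8b1 stood at 542 CPM with and 291 CPM without. Cd3g, a further CD3 chain, stood at 1244 CPM with and 642 CPM without, and Cd3e at 943 CPM with and 613 CPM without. All 5 of 5 genes of the CD8 list with at least 20 UMIs were past 1.5-fold on the higher side, and 3 of 16 genes of the T cell receptor list, the CD3 chains that the CD8 list also holds. List counts here and below use no filter on cells, so they take in sparser genes than the shares over all genes.

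Ikzf2 and Klre1 differed little between the same cells. Ikzf2 stood at 475 CPM with a clonotype and 407 CPM without, 1.17-fold higher (1.03 to 1.32). Klre1 stood at 44.3 CPM with and 42.6 CPM without, a ratio of 1.04 (0.706 to 1.55). After thinning Ikzf2 was seen in 43.8% of the 397 control cells with a clonotype and 38.2% of the 170 without. None of the 4 Ikaros family genes with enough UMIs was past 1.5-fold in either direction.

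Gzma was the lower of the name-giving genes in control cells with a clonotype, at 1155 CPM with and 2301 CPM without, which is 1.99-fold lower (1.88 to 2.11). Thinned, Gzma was seen in 11.3% of control cells with a clonotype and 23.5% of those without. Over the cells with Cd8 the direction turned. Among the 464 control cells with Cd8, Gzma stood at 1235 CPM in the 358 with a clonotype and 664 CPM in the 106 without, 1.86-fold higher (1.66 to 2.09). That rested on a few cells, since without the highest cell Gzma stood at 879 CPM with and 664 CPM without, and without the 2 highest cells at 687 CPM with and 664 CPM without. Gzma was uneven between cells. The 29 control cells with most of it, 5% of the 572, held 87.9% of its UMIs, and the highest cell held 810. At least 20 Gzma UMIs were found in 38 control cells, 18 with a clonotype and 20 without. For Ikzf2 the 29 highest cells held 27.3% of 1523 UMIs, and the highest cell held 24.

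The NK cell list was lower as a whole in control cells with a clonotype, with a median of -0.33. By 1.5-fold 2 of its 18 genes were higher and 9 lower, where 5.76% of 5473 genes were higher and 6.49% lower. Klra3, a Ly49 receptor of NK cells outside that list, stood at 6.09 CPM with a clonotype and 79.4 CPM without. This is 13-fold lower (7.38 to 24.5). Klra7, of the same family, was 5.02-fold lower. The Klra genes are close copies of each other, and reads shared between them could have been assigned to the wrong one. Ncr1 had 1 UMI with a clonotype and 23 without. Tyrobp stood at 77.6 CPM with and 325.6 CPM without, 4.2-fold lower (3.48 to 5.07), and Fcer1g was 3.02-fold lower. Within the Cd8 cells Fcer1g differed by -0.76 and Tyrobp by -0.36 on the log2 scale. Klra3 differed by -2.03 there, from only 19 UMIs in 11 of 464 cells. Among the Cd8 cells alone the list had 1 of 17 genes higher and 3 lower, where 6.26% of 5018 genes were higher and 6.0% lower, 12.3% in either direction.

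Of the NK receptors that T cells also carry, Klrd1, Klrc2 and Klrk1 lay within 1.5-fold and Klrc1 lay past it. In control cells the NK receptor list as a whole had 4 of 19 genes higher and 6 lower with a clonotype, with a median of 0.04. Over all 5473 genes measured, 5.76% were higher and 6.49% lower. On the log2 scale Klrc1 differed by 0.67, Klrd1 by 0.34, Klrc2 by 0.24 and Klrk1 by -0.18. Cd160, a receptor of cytotoxic lymphocytes, differed by 1.40. Pdcd1 stood at 669.7 CPM with a clonotype and 465 CPM without, a log2 difference of 0.53, and Lag3 and Havcr2, also inhibitory receptors, differed by 0.54 and 0.59. Within the Cd8 cells Pdcd1 differed by 0.03 and Lag3 by 0.05.

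The granzymes were not lower together. Gzmc stood at 69.9 CPM in control cells with a clonotype and 421 CPM in those without, 6.03-fold lower, but 1 cell without a clonotype held 187 of its 538 UMIs. Without that cell the log2 difference was -1.57 in place of -2.57, and without the 5% of cells with the most UMIs it was -0.40. Gzmb differed by -0.33, Gzmf by 0.52 and Gzmd by 0.65 on the log2 scale, and Gzmd by 0.01 without its highest cell. Nkg7, a protein of the cytotoxic granule membrane, stood at 2207 CPM with a clonotype and 1434 CPM without.

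Other lists set the control cells without a clonotype apart as well. Over all 5473 genes measured, 5.76% were higher and 6.49% lower with a clonotype. In the naive and memory list 1 of 12 genes was higher and 7 were lower, with a median of -0.67. The quiescence factor Klf2 differed by -1.59 (-0.67 within the Cd8 cells) and Tcf7, the factor TCF-1 of stem-like T cells, by -1.07. Within the Cd8 cells Tcf7 differed by -1.52, and the list had 1 of 9 genes higher and 5 lower. Irf8, a transcription factor of activated CD8 T cells and myeloid cells, differed by -0.76 over all cells and by 0.33 within the Cd8 cells. In the cell cycle list 6 of 16 genes were higher with a clonotype and 0 lower, with a median of 0.21, and Mki67, the proliferation marker Ki-67, differed by 1.29. The neutrophil gene S100a8 lay close in these cells, at 681 CPM with a clonotype and 719 CPM without. Hdc, also of the neutrophil list, was higher with a clonotype and is given below.

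The genes with the largest differences over the whole table were named by rank. Higher in control cells with a clonotype were Pclaf, a replication clamp factor, with a log2 difference of 2.20, the cell cycle inhibitor Cdkn2a with 2.16, the trefoil peptide Tff1 with 2.13, Hdc, the enzyme of histamine synthesis, with 1.91 and the spindle protein Prc1 with 1.84. Hdc had 67 of its 228 UMIs in 1 cell, and differed by 1.36 without it. Of the 228 Hdc UMIs, 189 lay in 9 of the 44 Cd4 cells and 37 in the Cd8 cells. Lowest after Klra3 were the growth factor gene Vegfa at -3.08, the integrin gene Itgax at -3.00, Gzmc and Klra7, then Car2, a carbonic anhydrase, at -2.06. Within the Cd8 cells Vegfa differed by -0.18, Itgax by -1.10 and Car2 by -0.36. These differences rank sums over cells and include those set by a few cells.

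**Figure D3:**
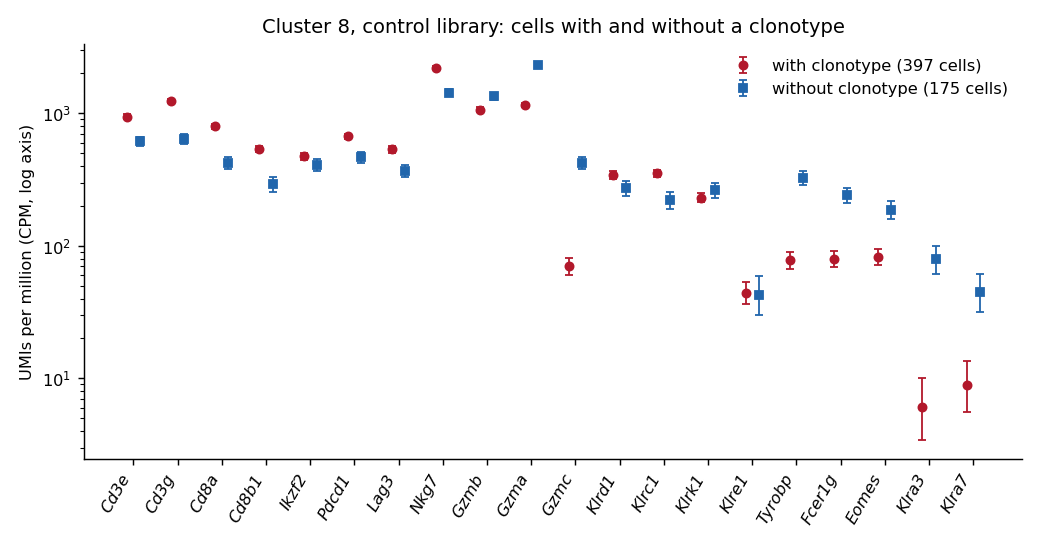
Levels of 20 genes in CPM on a log axis in control cells of cluster 8 with a clonotype and without one, with exact 95% Poisson intervals. Cd8a, Cd8b1 and Cd3g lay higher with a clonotype, Ikzf2 and Klre1 lay close together, and Gzma, Gzmc, Klra3, Klra7 and Tyrobp lay lower.

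In the IL-12 library the same comparison rested on 20 cells with a clonotype and 42 without. Of 509 genes measured, 39 (7.66%) were higher and 90 (17.7%) lower by 1.5-fold with a clonotype, 25.3% in all. Cd8a differed by 0.08 and Cd3e by 0.28 on the log2 scale. Ikzf2 had 33 UMIs with a clonotype and 73 without, a difference of -0.23, and of -0.79 without its highest cell. Gzma had 69 UMIs with and 133 without, a difference of -0.03, and of 1.11 without its highest cell. The 133 UMIs lay in 2 cells. Klre1 had 6 UMIs with and 17 without. In the cytotoxic list 1 of 15 genes was higher and 8 were lower. Gzmd had 0 UMIs with a clonotype and 80 without, at least 14.2-fold lower against a floor of 3 UMIs over the group, but 56 of the 80 were in 1 cell. Gzmf had 38 UMIs with and 245 without, a difference of -1.77, and of 0.26 without the cell that held 188 of them.

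Most cells of cluster 8 with a clonotype shared it with at least 1 other cell of their library, while most control clonotypes were seen in 1 cell. In the control library the 397 cells carried 157 clonotypes, of which 112 were seen in 1 cell, and 285 cells (71.8%, 67.1 to 76.2%) belonged to clonotypes of at least 2 cells. In the IL-12 library the 20 cells carried 14 clonotypes, and 16 cells (80%) belonged to clonotypes of at least 2 cells in the library, or 10 (50%) when only cells of cluster 8 are counted. The largest control clonotype had 101 cells, of which 81 were in cluster 8, 8 in cluster 9 and 6 in cluster 12. The next had 39 cells with 34 in cluster 8, and held an alpha chain only. Of all cells that carry a clonotype seen in cluster 8, 20 of 2145 IL-12 cells (0.932%) and 397 of 450 control cells (88.2%) lay in cluster 8. The IL-12 cells of these clonotypes lay mostly in cluster 5, with 1509 cells, cluster 12, with 324, and cluster 9, with 184. Both chains were recorded for 15 of 20 IL-12 cells and 244 of 397 control cells.

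The receptors of the libraries overlapped little as pairs. Of the clonotypes with both chains, those of 0 of 15 IL-12 cells and 5 of 244 control cells had the same pair of chains in the other library. Alpha chain regions were shared more often, by 13 of 111 control alpha chains in 162 of 397 cells, and beta chains by 7 of 108 in 12 cells. A clonotype held by only 1 chain can join cells of different origin, and 130 of 397 control cells (32.7%) held only chains of the largest clonotype.

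Within the control library the large clones carried Ikzf2, and most of their cells held no Gzma UMI. Over the 6 largest clones in cluster 8 Ikzf2 ranged from 507 to 649 CPM, against 339 CPM in the 112 cells of clonotypes seen once. The groups also differed in make-up. Cd8a was seen in 90 to 100% of the cells of each clone and in 64.3% of the cells of clonotypes seen once. Its part in the differences given here was not tested. The clones of 34 and 15 cells and 1 clone of 10 cells were recorded with 1 chain each. In all, 3 of the 157 control clonotypes held only chains of the largest clonotype, with 130 cells. They were the largest itself and the clones of 34 and 15 cells. These 3 may thus be 1 clone, and Gzma differences between them may not be differences between clones. Gzma stood at 64.4 CPM in the 81 cells of the largest clone, with 31 UMIs in 5 cells. It stood at 474 CPM in the next clone, in 2 of 34 cells, and at 0 CPM in 3 of the 6. In the remaining clone it stood at 366 CPM, in 3 of 10 cells. In the cells of clonotypes seen once Gzma stood at 715 CPM, in 28 of 112 cells. Gzmb ranged from 272 to 1897 CPM over the 6 clones, Klre1 from 18.1 to 70.1 CPM and Pdcd1 from 473 to 846 CPM. Nrn1, a secreted protein first known from neurons, ranged from 72.5 to 486 CPM over the clones and stood at 86.3 CPM in the cells of clonotypes seen once. Lag3 ranged from 236 to 1014 CPM over the clones, with 835 CPM in the largest, and stood at 354 CPM in the cells of clonotypes seen once.

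**Figure D4:**
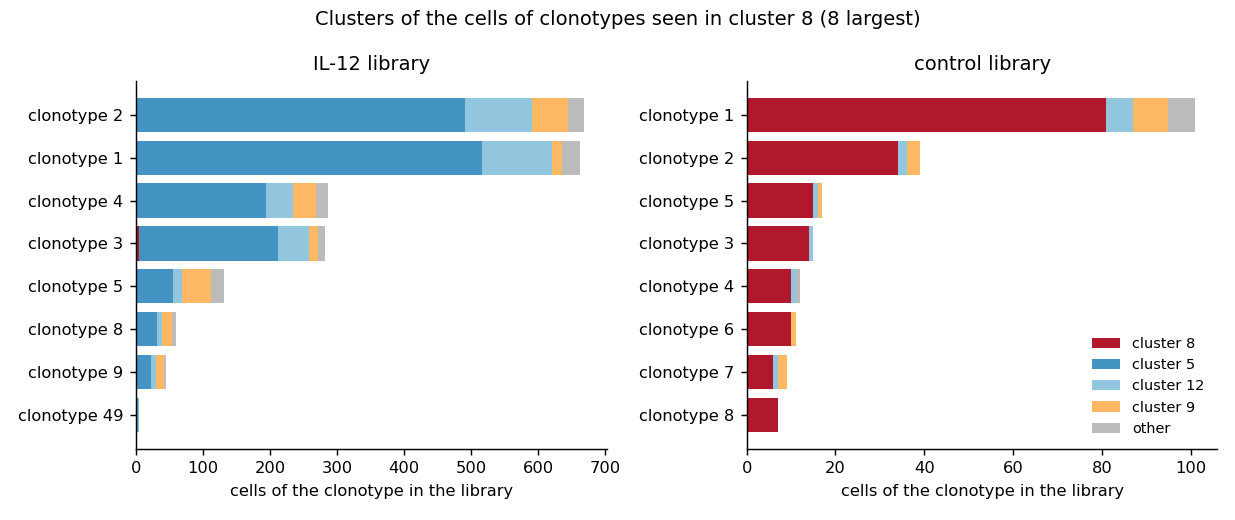
Cells of the 8 largest clonotypes seen in cluster 8, by the cluster that holds them, in the IL-12 library on the left and the control library on the right. Cells of the IL-12 clonotypes lay mainly outside cluster 8, and cells of the control clonotypes mainly within it.

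Between treatments, cluster 8 cells of the IL-12 library carried more cell cycle transcripts, and their Ikzf2 and Cd8a levels were close to those of the control library. Of 5645 genes measured, 692 (12.3%) were higher and 1352 (24.0%) lower by 1.5-fold in the IL-12 cells, 36.2% in all, with a median of all at -0.11. Ikzf2 stood at 412 CPM in IL-12 cells and 457 CPM in control cells, a ratio of 0.90 (0.731 to 1.10). Cd8a stood at 757 CPM in IL-12 cells and 699 CPM in control cells. Klre1 stood at 89.3 CPM in IL-12 cells and 43.8 CPM in control cells, 2.04-fold higher (1.25 to 3.18), from 23 UMIs in 14 IL-12 cells. Gzma stood at 784 CPM in IL-12 cells and 1454 CPM in control cells, 1.85-fold lower (1.61 to 2.14). The 202 Gzma UMIs of the IL-12 library lay in 7 cells, and the log2 difference of -0.89 became -0.43 within the Cd8 cells and -0.19 without the 5% of cells with the most UMIs.

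The cell cycle list had 17 of 17 genes past 1.5-fold on the higher side in IL-12 cells, with a median of 1.99 over the 11 of them with at least 50 UMIs and enough cells. Mki67 stood at 399.9 CPM in IL-12 cells and 65.1 CPM in control cells, 6.14-fold higher (4.81 to 7.80). Ube2c, which drives the exit from mitosis, was 11.1-fold higher (6.90 to 17.7), with a log2 difference of 3.37 and of 1.98 among cells with a clonotype, and Hmgb2, a chromatin protein of dividing cells, stood at 493 CPM in IL-12 cells and 123 CPM in control cells. The list kept its side within the Cd8 cells, with 17 of 17 genes higher. Over 5226 genes measured there 12.2% were higher and 24.9% lower, 37.1% in all. Within the cells with a clonotype 15 of 16 were higher, where 15.8% of 4819 genes were higher and 32.0% lower, 47.8% in all. The authors' phase calls, given only for cells with a clonotype, put 40% in S, 45% in G2M and 15% in G1 among 20 IL-12 cells, and 33.5% in S, 36.3% in G2M and 30.2% in G1 among 397 control cells. Replication histones led the ranked genes, with H2ac6 at a log2 difference of 5.4 and Hist1h2ap at 5.08. Histone genes of this kind come in many near-identical copies and their counts are uncertain. These differences hold for cells of cluster 8 and do not describe IL-12 CD8 T cells as a whole. Within the IL-12 library Mki67 had 103 UMIs in 24 of 62 cells of cluster 8. In cluster 5 it had 718 UMIs in 266 of 2488 cells. The log2 difference of cluster 8 from cluster 5 was 3.01 without the highest Mki67 cell. By the phase calls the G1 share of IL-12 cells was close in both clusters. G2M calls took 45% of the 20 cells of cluster 8 and 34.04% of 2209 cells of cluster 5. S calls took 40% in cluster 8 and 49.98% in cluster 5. The authors' mean S score was 0.729 in cluster 8 (standard deviation 1.16) and 0.249 in cluster 5 (0.635). Their mean G2M score was 0.706 in cluster 8 (standard deviation 1.22) and 0.153 in cluster 5 (0.628). The cause was not tested.

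Effector genes gave a less even picture. Ifng, the cytokine interferon gamma, stood at 186 CPM in IL-12 cells and 92.8 CPM in control cells, a log2 difference of 1.0, of 0.17 among cells with a clonotype and of 0.48 without its highest cell. The chemokine genes Ccl3 and Ccl4 differed by 1.40 and 1.15, and by 0.11 and 1.54 among cells with a clonotype, and Ccl4 by 0.57 without its highest cell. Gzmf stood at 1099 CPM in IL-12 cells and 332 CPM in control cells, but the log2 difference of 1.72 became 0.19 without 1 IL-12 cell. Gzmd stood at 311 CPM in IL-12 cells and 91.9 CPM in control cells. Among cells with a clonotype Gzmd had 0 UMIs in IL-12 cells and 250 UMIs in control cells, at least 3.02-fold lower against a floor of 3 UMIs over the group. Gzme there had 2 UMIs in IL-12 cells and 240 UMIs in control cells, a log2 difference of -2.07. Gzmb differed by -0.15. Ly6c2, a surface protein of activated and memory CD8 T cells in the mouse, differed by 1.67, by 1.59 within the Cd8 cells and by 0.68 among cells with a clonotype.

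Genes lower in the IL-12 cells included regulators of T cell state. Nr4a3, an immediate-early gene of receptor signalling, stood at 124 CPM in IL-12 cells and 348 CPM in control cells, a log2 difference of -1.48, and of -1.96 among cells with a clonotype. Tox, a factor of chronically stimulated T cells, differed by -1.12, and by -1.17 within the Cd8 cells. Klf2 differed by -2.03 and by -0.78 within the Cd8 cells. The list of T cell transcription factors had 0 of 19 genes higher and 8 lower, and the naive and memory list 0 of 12 higher and 7 lower, where 12.3% of all genes were higher and 24.0% lower. Within the Cd8 cells the naive and memory list had 0 of 9 higher and 2 lower, a share near the 24.9% of all genes that were lower there. Il12rb2, the signalling chain of the IL-12 receptor, had 0 UMIs in IL-12 cells and 85 in control cells, at least 2.19-fold lower against a floor of 3 UMIs over the group.

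Pdcd1 and Lag3 lay within 1.5-fold between treatments, and the NK lists leaned to the lower side, as all genes did. The exhaustion list had 1 of 16 genes higher and 3 lower in IL-12 cells, with Pdcd1 at 0.23 and Lag3 at 0.29. The NK receptor list had 2 of 19 higher and 7 lower, where 12.3% of all genes were higher and 24.0% lower. Klrd1 stood at -0.24, Klrk1 at -0.27, Klrc1 at -0.31 and Klrc2 at -0.83. The NK cell list had 1 of 18 higher and 6 lower. Myeloid transcripts also differed between the libraries in these cells. The 9 macrophage genes of that list summed to 1386 CPM in IL-12 cells and 955 CPM in control cells, with 5 higher and 0 lower. The 9 neutrophil genes summed to 943 CPM in IL-12 cells and 1728 CPM in control cells. The part of these transcripts in the other differences was not tested.

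**Figure D5:**
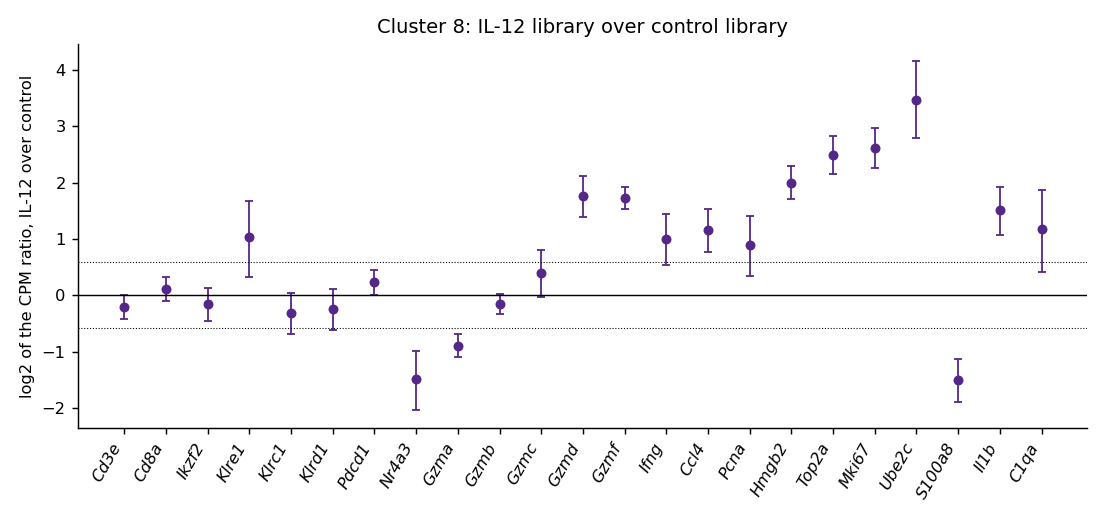
Log2 ratio of summed CPM, IL-12 over control, for 23 genes in cells of cluster 8, with exact 95% Poisson intervals and lines at 1.5-fold. Mki67 and Ube2c lay far above the upper line, Ikzf2 and Cd8a lay between the lines, and Nr4a3 and S100a8 lay below the lower line.

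Cluster 8 had a higher Ikzf2 level than cluster 5 of the CD8 class and than cluster 9, CD4 by label only, in both libraries. Gzma lay higher or lower by library and cluster. The clusters were made from these same genes, so the following levels describe them and test nothing. Within the IL-12 library Ikzf2 stood at 412 CPM in cluster 8 and 150.1 CPM in cluster 5, 2.74-fold higher (2.24 to 3.33), where 33.7% of 6555 genes were higher and 16.9% lower by 1.5-fold, 50.6% in all. Gzma stood at 784 CPM in cluster 8 and 763 CPM in cluster 5, and Klre1 at 89.3 CPM in cluster 8 and 91.0 CPM in cluster 5. Ccl5, a chemokine of effector T cells, stood at 2046 CPM in cluster 8 and 7264 CPM in cluster 5. In the control library Ikzf2 stood at 457 CPM in cluster 8 and 263 CPM in cluster 9, where 22.5% of 5727 genes were higher and 5.99% lower, 28.5% in all. Gzma stood at 1454 CPM in cluster 8 and 992 CPM in cluster 9. The cytotoxic list had 10 of 18 genes higher and 0 lower in cluster 8 against cluster 9 of that library, with Gzmb at 1.57 and Prf1, the pore-forming perforin, at 1.37. The naive and memory list had 0 of 12 higher and 7 lower, with Klf2 at -1.79 and S1pr1, the receptor for exit from tissue, at -1.64. The neutrophil genes of the list summed to 1728 CPM in cluster 8 and 4015 CPM in cluster 9. In the opposite pairings the IL-12 cells of cluster 8 had a log2 difference from cluster 9 of 1.01 for Ikzf2, -0.51 for Gzma and 0.56 for Klre1, where 21.9% of 4633 genes were higher and 15.1% lower, 37.0% in all. The control cells of cluster 8 had a log2 difference from the 13 cells of cluster 5 of 0.68 for Ikzf2, -0.45 for Gzma and 0.86 for Klre1, where 34.8% of 5547 genes were higher and 15.6% lower, 50.4% in all.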

How the data were processed

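Per the submitters' processing notes, Cell Ranger 2.1.0, STAR 2.6.1 and Partek were used with the mm10 build, and the notes give no parameters. The authors deposited 1 expression table per library with log2 values of CPM plus 1, and with their clusters, classes and clonotype names for each cell. They also deposited a table of cells with a receptor, with phase calls and signature scores. The smallest step of each cell's deposited log2 values was taken as 1 UMI, which gave UMI counts. Only 12 of 13883686 nonzero values in the IL-12 library and 7 of 4251108 in the control library were not whole within 0.1. Library totals were 59956933 UMIs in the IL-12 library and 17306854 UMIs in the control library, and the 11407 genes of the tables held 70.4% and 72.9% of them.

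Counts were summed over the cells of a group and divided by all their UMIs. Log2 differences carry a pseudocount of 1 CPM. Fold intervals are exact conditional binomial intervals, and intervals of shares are Clopper-Pearson intervals. PCR and cells of 1 mouse make molecules less independent than these intervals assume. A gene was measured with at least 50 UMIs over both groups and was seen in 5% or more of the cells in at least 1 of them, a list member was counted with at least 20 UMIs, and "past 1.5-fold" refers to the log2 difference. List medians were taken over measured members only, while list counts and the shares over all genes rest on different filters. By clonotype in the control library 670 of 5473 measured genes were past 1.5-fold. With at least 10 UMIs and no filter on cells it was 1866 of 8332. The 26 gene lists gave the named genes, with the 10 highest and 10 lowest measured genes of each comparison. The members and lists were chosen with earlier results of these data known. Genes that cluster 8 does not turn on, and list genes outside the tables, are not analysed here. The result of 1 listed gene is not reported here. A few genes are named that were picked from the values, among them Nrn1.

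No doublet caller was run, and a setting without the 5% of cells with the most UMIs stands in for it. The fold and interval steps were run on simulated data. These were independent Poisson counts drawn from 1 mean profile, the model that the intervals assume. The run checks the arithmetic and cannot show how the intervals hold for genes uneven between cells. Python 3.11.15, numpy 2.4.6, pandas 2.3.3, scipy 1.17.1 and matplotlib 3.10.9 were used. Coordinates are those of GENCODE M21 on mm10. Of the deposited receptor table the phase calls and the S and G2M scores were used, and its other score columns were not.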

Additional observations from a re-analysis of the deposited data

Results flagged for a closer look

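Among 135 list genes with at least 20 UMIs in both libraries of cluster 8, 4 were past 1.5-fold in opposite directions between cells with and without a clonotype, with both intervals leaving out 1. The difference between the libraries was not tested, and the same count over all genes was not made. The log2 difference of Gzmd was -8.897 in the IL-12 library, where the cells with a clonotype held 0 UMIs and 1 cell held 56 of the 80 UMIs, and 0.6479 in the control library. The size of the IL-12 value is set by the pseudocount, and against a floor of 3 UMIs Gzmd was at least 14.2-fold lower. Gzme, a granzyme gene like Gzmd, differed by -3.585 in the IL-12 library, with 2 UMIs with a clonotype and 47 without, and by 0.8997 in the control library. Without the highest cell of each gene the control differences were 0.01 for Gzmd and 0.43 for Gzme, both within 1.5-fold. Il18rap, a chain of the IL-18 receptor, differed by 2.325 in the IL-12 library, with 19 UMIs with a clonotype and 7 without, and by -1.05 in the control library. In the IL-12 library 1 cell held 13 of the 26 Il18rap UMIs, and the difference was 0.74 without it. Spp1, the secreted protein osteopontin, differed by -1.065 in the IL-12 library and by 0.6946 in the control library.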

How the results depend on the processing

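With 1 library per treatment, pooled mice and 62 IL-12 cells, the comparisons between treatments have no replicate check. No paired analysis was possible because each group is 1 pooled library. Clone sizes could not be recomputed from the receptor table, which carries no clonotype names. Chosen after seeing the data were Cd8 cells only for the treatments, the control cells without the largest clonotype, each gene without its highest cell, and Gzma in Cd8 cells without its 1 or 2 highest cells.

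Over all settings 2213 values of single genes were recomputed, of which 1962 stayed within the interval first given, 233 left it, and 18 that had been past 1.5-fold changed direction. Values within 1.5-fold could change sign without being counted among the 18, such as Gzma by clonotype in the IL-12 library, at 1.11 without its highest cell in place of -0.03. With at least 10 UMIs and no filter on cells, the count of genes past 1.5-fold was 3763 in place of 2044 between treatments, 1866 in place of 670 by clonotype in the control library and 1393 in place of 129 by clonotype in the IL-12 library. It was 5801 in place of 3316 for cluster 8 against cluster 5 in the IL-12 library and 4947 in place of 2798 in the control library, and against cluster 9 it was 3840 in place of 1716 in the IL-12 library and 3092 in place of 1630 in the control library. With at least 200 UMIs the same counts were 664 between treatments, 115 and 10 by clonotype in the control and the IL-12 library, 988 against cluster 5 in the control library, and 481 and 509 against cluster 9 in the IL-12 and the control library. In the IL-12 library the share of genes past 1.5-fold that were higher in cluster 8 than in cluster 9 was then 44.3% in place of 59.1%. A pseudocount of 10 CPM gave 324 genes by clonotype and 1055 against cluster 9, both in the control library, and thinning each cell to 2000 UMIs gave 402 genes by clonotype there. These counts depend on how many genes are tested.

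Cluster 8 took 0.877% of IL-12 cells that are not neutrophils and 1.90% of the IL-12 CD8 class, and 37.9%, 88.1% and 79.9% of control cells that are not neutrophils, of the CD8 class and of those with a clonotype. Thinned to 1000 UMIs, Cd8a was seen in 45.2% of IL-12 and 43.7% of control cells, Cd3e in 53.2% and 53.8%, and in control cells Ikzf2 in 27.6% and Klre1 in 3.67%. At least 2 UMIs were held by 66.1% of IL-12 cells for Cd3e, 32.3% for Ikzf2 and 9.68% for Klre1, and by 69.8% of control cells for Cd8a, 81.3% for Cd3e, 45.5% for Ikzf2, 13.3% for Gzma and 4.72% for Klre1. Not thinned, the control shares were 77.6% for Cd8a, 90.4% for Cd3e, 60.1% for Ikzf2, 19.9% for Gzma and 18.9% for Klre1. Cd8 and Ikzf2 were seen together in 14.5% of IL-12 cells thinned to 1000 UMIs. Control cells thinned to 1000 UMIs and not thinned gave 16.4% and 53.3% for Cd8 with Ikzf2, 4.55% and 13.6% for Cd8 with Gzma, and 1.92% and 8.74% for Ikzf2 with Gzma. Counted inside cluster 8, clones of at least 2 held 50% of IL-12 cells.

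Between treatments, cells with a clonotype gave log2 differences of -6.68 for Gzmd, -2.07 for Gzme and -3.58 for Gzmg in place of 1.75, 1.14 and 2.12, where Gzmd and Gzmg had 0 UMIs in IL-12 cells and their values are set by the pseudocount. Cd8 cells gave 0.37 for S1pr1 in place of -1.69, and Il18rap gave -0.025 without its highest cell in place of 0.94. By clonotype in the control library, Gzma gave 0.74 in cells with a CD3 transcript, 0.89 in Cd8 cells, and 0.40 and 0.049 in Cd8 cells without the highest 1 and 2, in place of -0.99. Cd8 cells there also gave 0.53 for Ncr1, which is 1 UMI against 0 and shows no direction, and 0.33 for Irf8, 0.73 for Ecm1 and 0.64 for Pecam1, all on the lower side over all cells. Gzmg gave 1.42 without the 5% of cells with the most UMIs and 1.08 without its highest cell, in place of -1.42, and Gzmd gave -0.11 without the largest clonotype. By clonotype in the IL-12 library Gzmf gave 0.23 without the 5% of cells with the most UMIs and 0.26 without its highest cell, in place of -1.77. The cause was not tested where a setting leaves out cells chosen by depth or by a transcript.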

Other observations

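Genes of other lists also differed within the control cells of cluster 8. Of the innate lymphoid and tissue-resident list 1 of 18 genes was higher and 7 were lower by 1.5-fold in cells with a clonotype than in cells without, where 5.76% of 5473 genes were higher and 6.49% lower. Among the lower genes were Kit, a growth factor receptor, at a log2 difference of -1.14 (-0.30 within the Cd8 cells) and Il18rap at -1.05. Xcl1, a chemokine that attracts cross-presenting dendritic cells, differed by -1.06. It stood at 399.6 CPM in the cells with CD3 alone and 43.6 CPM in the Cd8 cells with a clonotype. Of the immediate early and stress list 1 of 17 genes was higher and 4 were lower, with Fos at -1.44, Nr4a1 at -1.29 (-0.55 within the Cd8 cells) and Fosb at -1.10, and within the Cd8 cells Fosb differed by -1.53.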
